A study of Rattus norvegicus with 8 samples.

Results

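The laminins, nidogens, perlecan and agrin are the non-collagen core of basement membranes, the thin sheets of matrix around vascular smooth muscle cells and under the endothelium. They were followed in thoracic aorta of male wild type Sprague Dawley rats after nitroglycerin (glyceryl trinitrate, GTN), an organic nitrate that relaxes vessels and to which they become tolerant. The members are a fixed list of 10 gene symbols, matched to the gene names of a table of 27742 rows. Of these, 9 were found by symbol: Lama2, Lama4, Lama5, Lamb1, Lamb2, Lamc1, Nid1, Nid2 and Agrn. Perlecan, Hspg2, was not found under that symbol and was taken from the row named AABR07073181.1 (MSTRG.16647), which RefSeq lists as a synonym of Hspg2. Nid2 had a second row of lower mean, which was not used. All 10 members passed the filter for the test, which was at least 1 FPKM in at least 4 libraries.

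The 4 nitroglycerin libraries came from rats injected under the skin with 100 mg/kg, 3 times a day for 3 days, and the 4 control libraries from rats given the ethanol vehicle on that schedule. The labels give both groups an age of 12 weeks and a weight of 180 to 200 g, and the extraction protocol speaks of adipose tissue although the tissue is named aorta. They do not say whether each library is 1 rat, so p-values cover only the spread among the samples sequenced.

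Each laminin is a cross-shaped trimer of an alpha, a beta and a gamma chain, and the chains differ between tissues. Laminins bind cells through integrins and dystroglycan and assemble into a network. Nidogens and perlecan link that network to the collagen IV network, and perlecan and agrin carry heparan sulfate chains that hold growth factors. In the aorta these proteins coat each smooth muscle cell and the base of the endothelium.

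Sequences of the 250 bases before the annotated start were matched by symbol in RefSeq (rat assembly GRCr8) for 8 of the 10 members. The 4 shown are Hspg2 and Lama4, whose values did not overlap between the groups, Lamc1, the only gamma chain among the members, and Lama2, the only member window with a CArG box. Each is written 5′ to 3′ on the strand of the gene, with matches in capitals to the GC box GGGCGG (bound by Sp1-type factors), the TATA box TATAAA and the CArG box (bound by serum response factor), all searched on both strands.
Hspg2 (chr5:154960596-154960845, plus strand): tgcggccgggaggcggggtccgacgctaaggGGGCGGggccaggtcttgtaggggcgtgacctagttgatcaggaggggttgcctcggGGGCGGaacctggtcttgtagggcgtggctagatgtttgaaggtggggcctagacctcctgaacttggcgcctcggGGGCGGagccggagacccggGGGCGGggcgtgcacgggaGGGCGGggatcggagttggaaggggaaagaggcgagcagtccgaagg
Lama4 (chr20:43946648-43946897, plus strand): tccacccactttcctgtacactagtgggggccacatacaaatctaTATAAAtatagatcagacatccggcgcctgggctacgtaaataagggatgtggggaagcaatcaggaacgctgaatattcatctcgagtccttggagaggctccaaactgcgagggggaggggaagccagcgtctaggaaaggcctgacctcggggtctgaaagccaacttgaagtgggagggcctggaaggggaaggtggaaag
Lamc1 (chr13:68051987-68052236, minus strand): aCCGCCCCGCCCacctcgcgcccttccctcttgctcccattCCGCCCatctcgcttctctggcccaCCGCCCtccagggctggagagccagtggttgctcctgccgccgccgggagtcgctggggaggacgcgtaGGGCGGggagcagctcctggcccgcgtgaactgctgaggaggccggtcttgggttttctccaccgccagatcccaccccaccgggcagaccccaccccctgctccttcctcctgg
Lama2 (chr1:19491896-19492145, plus strand): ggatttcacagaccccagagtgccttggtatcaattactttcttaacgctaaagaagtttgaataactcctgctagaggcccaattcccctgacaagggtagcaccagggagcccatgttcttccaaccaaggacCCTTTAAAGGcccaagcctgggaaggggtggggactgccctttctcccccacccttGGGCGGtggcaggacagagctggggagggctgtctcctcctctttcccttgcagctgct
The Hspg2 window held 5 GC boxes, at 219, 162, 86, 66 and 47 bases before the start. The Lamc1 window also held 5, the farthest pair of which share a base. The Lama4 window held no GC box and a TATA box 205 bases before the start. The Lama2 window held 1 GC box at 59 bases and the CArG box at 115 bases. Of the 8 windows, 6 held a GC box, 1 a TATA box and 1 a CArG box, against 30.5%, 12.9% and 1.5% of 33469 rat windows of the same length. G and C made up 69.2% of the Hspg2 window, 71.2% of Lamc1, 55.6% of Lama2 and 53.2% of Lama4. A match is a description of these letters and not a binding site.

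Libraries held 7.48 to 8.86 Gb of aligned sequence in the control group and 6.77 to 8.39 Gb in the nitroglycerin group. Values are FPKM, fragments scaled by transcript length and by the size of the library, so they are relative. The 100 rows of highest mean took 51.7% to 71.4% of the summed FPKM in controls and 47.4% to 50.4% with nitroglycerin. The median log2 difference of all 12977 rows tested, nitroglycerin minus control, was 0.30. Differences were therefore also measured after dividing each library by a median-of-ratios factor, which brought that median to 0.01. Control libraries had factors of 0.742 to 0.996 and nitroglycerin libraries 1.07 to 1.22, and "rescaled" below refers to this step. Differences are on the log2(FPKM + 1) scale, which understates those of low genes.

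In control aorta perlecan was the most abundant member, at 203 ± 25.8 FPKM (mean ± SD, n = 4 for this and every value below). Lamb2, the laminin beta 2 chain typical of mature muscle and vessel walls, followed at 89.8 ± 15.4 FPKM. Lama4 stood at 53.9 ± 7.25 and Nid1 at 52.1 ± 9.83 FPKM, with overlapping ranges. The Nid1 range also overlapped that of Lamb1, at 31.6 ± 7.80 FPKM. Lamc1, the gamma 1 chain of most laminins, stood at 20.6 ± 3.22 FPKM, separate from its neighbours in the order. Lama2, Agrn and Lama5 lay together at 12.3 ± 2.26, 12.1 ± 2.00 and 11.5 ± 2.63 FPKM and were not separated by their ranges. Nid2 was lowest, at 3.07 ± 1.28 FPKM.

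**Figure D1:**
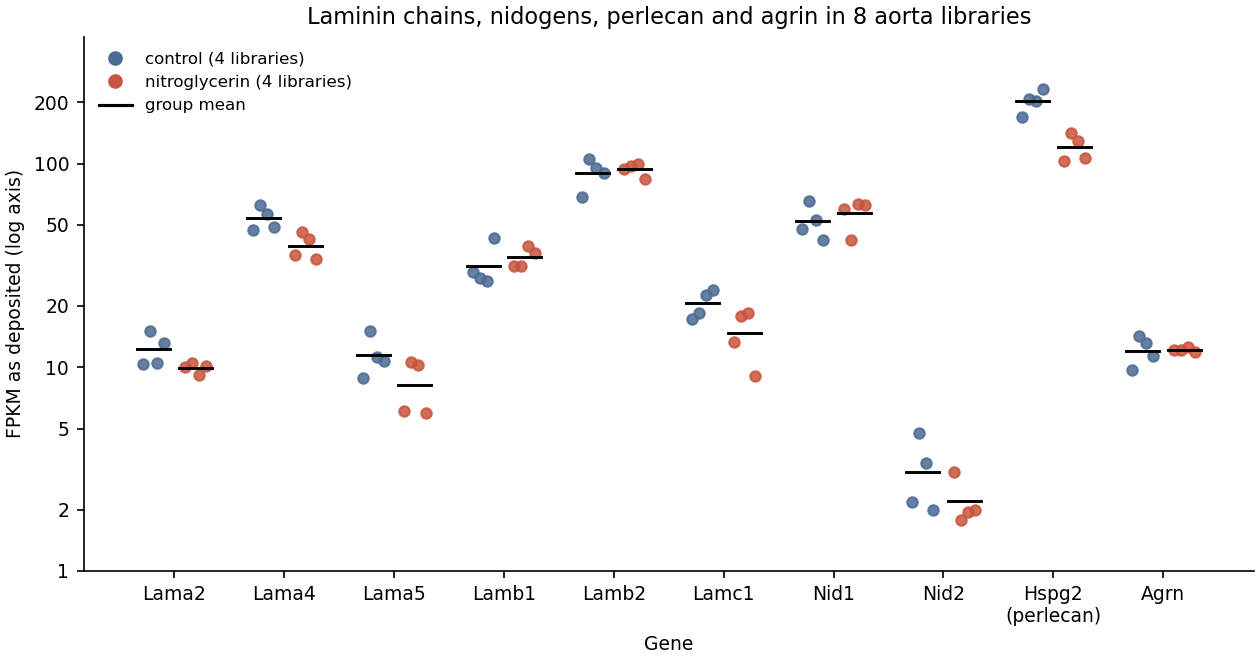
FPKM of the 10 members in each library, on a log axis, with controls and nitroglycerin side by side; points are single libraries and the horizontal bars are group means. Perlecan (Hspg2) and Lama4 are the members whose 4 nitroglycerin values all lie under the 4 control values.

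With nitroglycerin, perlecan stood at 59.1% of its control level and Lama4 at 73.2%, and for both every nitroglycerin library was below every control library. The other alpha chains, Lamc1 and Nid2 also had lower means with overlapping groups, while Lamb1, Lamb2, Nid1 and Agrn had means close to or slightly above those of the controls. No member passed the test over all rows, 0 of 10 by limma with Benjamini-Hochberg adjustment. At an unadjusted p under 0.05, 2 members were lower, perlecan and Lama4, and none was higher (0 of 10). Over all rows tested 0.0616% were called lower and 1.29% higher by adjusted p, and at an unadjusted p these shares were 1.02% and 34.1%. Groups without overlap and lower with nitroglycerin were found for 2 members and for 0.478% of all rows, and higher for 0 members and 24.2% of rows. Lama4 fell short of an unadjusted p under 0.05 without control replicate 3, nitroglycerin replicate 1 or nitroglycerin replicate 4, which left 1 member, and without control replicate 1 or nitroglycerin replicates 2 or 3 there were 4.

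Lama4, the alpha 4 chain of laminins in vessels and muscle, read 47.3, 62.9, 56.6 and 48.9 FPKM in controls 1 to 4. It read 35.5, 46.2, 42.4 and 33.8 FPKM in nitroglycerin libraries 1 to 4. The groups did not overlap, though nitroglycerin replicate 2 came close to control replicate 1. The log2 difference was -0.44 (SE 0.16, limma unadjusted p = 0.0213, Benjamini-Hochberg adjusted p = 0.0961). After rescaling it was -0.82 (SE 0.15, limma adjusted p = 0.0875).

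Lama5, the alpha 5 chain found under arterial endothelium and around smooth muscle, read 8.88, 15.1, 11.2 and 10.8 FPKM in controls. It read 6.11, 10.6, 10.3 and 5.95 FPKM with nitroglycerin. Nitroglycerin replicates 1 and 4 were lowest, and replicates 2 and 3 lay within the control range. Its log2 difference was -0.46 (SE 0.22, limma adjusted p = 0.175).

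Lama2, the alpha 2 chain best known from muscle and peripheral nerve, whose loss causes a congenital muscular dystrophy, read 10.4, 15.1, 10.5 and 13.2 FPKM in controls. It read 10.0, 10.5, 9.21 and 10.2 FPKM with nitroglycerin. The nitroglycerin values were close together and overlapped only the lower end of the controls. The log2 difference was -0.26 (SE 0.14, limma adjusted p = 0.202), and -0.17 without control replicate 2.

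Lamc1 read 17.3, 18.4, 22.7 and 23.9 FPKM in controls and 13.4, 17.9, 18.6 and 9.06 FPKM with nitroglycerin. As for Lama5, nitroglycerin replicates 4 and 1 were lowest and the other two overlapped the controls. The log2 difference was -0.49 (SE 0.23, limma adjusted p = 0.153), and -0.29 without nitroglycerin replicate 4.

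The beta chains pair with the alpha and gamma chains and are exchanged during vessel maturation. Lamb1 read 29.4, 27.3, 26.6 and 43.2 FPKM in controls and 31.5, 31.4, 39.2 and 36.6 FPKM with nitroglycerin. Control replicate 4 was the highest of all 8, and the groups overlapped (log2 difference 0.15, SE 0.18, limma adjusted p = 0.544). Lamb2 read 68.6, 105, 95.2 and 90.5 FPKM in controls and 93.7, 97.0, 99.9 and 84.4 FPKM with nitroglycerin. The nitroglycerin values lay inside the control range (log2 difference 0.08, SE 0.16, limma adjusted p = 0.748). Leaving out single libraries moved the Lamb1 difference between 0.08 and 0.31 and that of Lamb2 between -0.047 and 0.16. After rescaling both beta chains had differences below 0, at -0.23 for Lamb1 and -0.31 for Lamb2.

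Within each chain class the makeup overlapped between the groups. Lama4 made up 67.1% to 72.3% of the summed FPKM of the 3 alpha chains in controls and 67.7% to 68.7% with nitroglycerin. Lamb2 made up 67.7% to 79.4% of the summed beta chains in controls and 69.7% to 75.5% with nitroglycerin. The summed alpha chains came to 66.6, 93.1, 78.3 and 72.8 FPKM in controls and 51.6, 67.2, 61.9 and 49.97 FPKM with nitroglycerin. The summed beta chains came to 98.0, 132, 122 and 134 FPKM in controls and 125, 128, 139 and 121 FPKM with nitroglycerin. The alpha sums thus overlapped by a single nitroglycerin library and the beta sums overlapped throughout, a description with no test, chosen after the values were seen. Lamc1 per summed beta chains, chosen in the same way, was 0.176, 0.139, 0.187 and 0.179 in controls and 0.107, 0.140, 0.133 and 0.0749 with nitroglycerin. The groups met at the replicates 2, whose values were nearly the same.

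**Figure D2:**
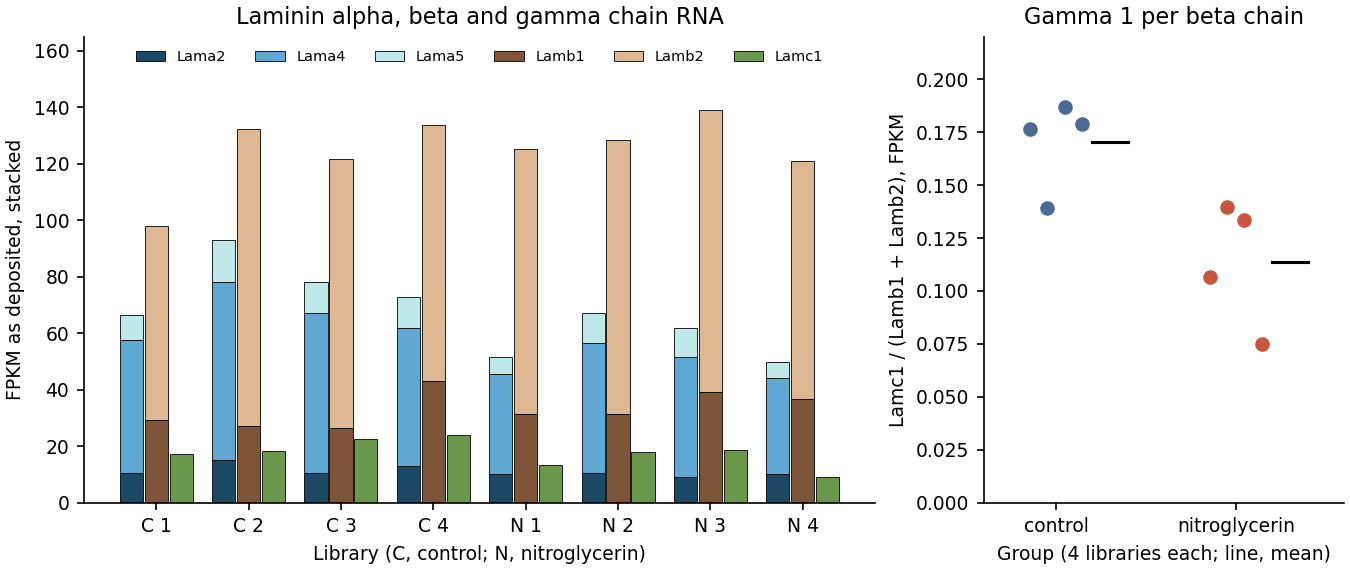
Left, FPKM of the alpha, beta and gamma chains stacked by class in each library (C, control; N, nitroglycerin); right, Lamc1 divided by the summed beta chains, with points for libraries and lines for group means. Lama4 and Lamb2 fill most of their stacks in all 8 libraries, and the Lamc1 ratio runs from 0.139 to 0.187 in controls and from 0.0749 to 0.140 with nitroglycerin.

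Nidogens bridge the gamma 1 chain and collagen IV. Nid1 read 47.9, 65.2, 53.0 and 42.1 FPKM in controls and 59.7, 41.9, 63.3 and 62.7 FPKM with nitroglycerin. Nitroglycerin replicate 2 had the lowest value of all 8 libraries and the other three lay in the upper part of the control range (log2 difference 0.13, SE 0.19, limma adjusted p = 0.640). Nid2 read 2.18, 4.75, 3.37 and 1.99 FPKM in controls and 3.06, 1.78, 1.95 and 1.99 FPKM with nitroglycerin. Its groups overlapped, with control replicate 2 highest (log2 difference -0.32, SE 0.22, limma adjusted p = 0.313), and the difference was -0.13 without that library. With single libraries left out that of Nid1 ranged from 0.03 to 0.26.

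Perlecan limits smooth muscle proliferation and stores fibroblast growth factors on its heparan sulfate chains. It read 170.2, 207, 203 and 233 FPKM in controls and 103, 142, 129 and 106 FPKM with nitroglycerin. The highest nitroglycerin library, replicate 2, stayed below the lowest control, replicate 1. The log2 difference was -0.76 (SE 0.17, limma unadjusted p = 0.0016, Benjamini-Hochberg adjusted p = 0.0573), and 0.956% of all rows had a lower one. Rescaled values were 207 to 258 FPKM in controls and 87.4 to 133 FPKM with nitroglycerin, and the rescaled difference was -1.14 (SE 0.16, limma adjusted p = 0.0535). Over all alternatives to the values as deposited the difference lay between -1.14 and -0.65, with limma adjusted p from 0.043 to 0.139. It passed with a filter of 5 FPKM (limma adjusted p = 0.043) and with robust moderation (limma adjusted p = 0.04997), and perlecan and Lama4 both passed after rescaling without nitroglycerin replicate 2 (limma adjusted p = 0.0306 and 0.0497).

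Agrin, the other secreted heparan sulfate proteoglycan of the list, clusters acetylcholine receptors at the nerve-muscle junction and is also laid down in vessel walls. It read 9.67, 14.2, 13.2 and 11.3 FPKM in controls and 12.1, 12.2, 12.6 and 11.9 FPKM with nitroglycerin. The nitroglycerin values were tightly grouped inside the control range (log2 difference 0.03, SE 0.13, limma adjusted p = 0.897). After rescaling the difference was -0.33 (SE 0.08, limma adjusted p = 0.185) and the groups no longer overlapped.

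A ratio of 2 members within a library does not depend on how the library was scaled, and 5 pairs were compared in this way. The perlecan to agrin ratio was 17.6, 14.6, 15.4 and 20.6 in controls and 8.50, 11.7, 10.3 and 8.91 with nitroglycerin. The groups did not overlap. On the log2 scale the ratio was 4.08 ± 0.22 and 3.29 ± 0.21, a difference of -0.79 (SE 0.15, n = 4 per group, two-sided exact permutation p = 0.0286). That p is the smallest that 4 against 4 allows, and adjusted over the 5 pairs by Benjamini-Hochberg it was 0.143.

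The other ratios overlapped between the groups. The Nid1 to Nid2 ratio was 21.98, 13.7, 15.7 and 21.1 in controls and 19.5, 23.6, 32.6 and 31.5 with nitroglycerin (log2 difference 0.56, SE 0.24, exact permutation p = 0.114, adjusted 0.286). The Lama2 to Lama5 ratio was 0.940 to 1.23 in controls and 0.896 to 1.71 with nitroglycerin, where replicates 1 and 4 were high (log2 difference 0.22, SE 0.26, exact permutation p = 0.400). That difference was 0.075 without nitroglycerin replicate 4, 0.094 without replicate 1, 0.34 without replicate 2 and 0.39 without replicate 3. The Lama4 to Lama5 ratio had a log2 difference of 0.06 (SE 0.15, exact permutation p = 0.686) and the Lamb1 to Lamb2 ratio one of 0.08 (SE 0.24, exact permutation p = 0.714). The direction of these 2 changed with a library left out, from -0.02 to 0.14 and from -0.06 to 0.23.

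**Figure D3:**
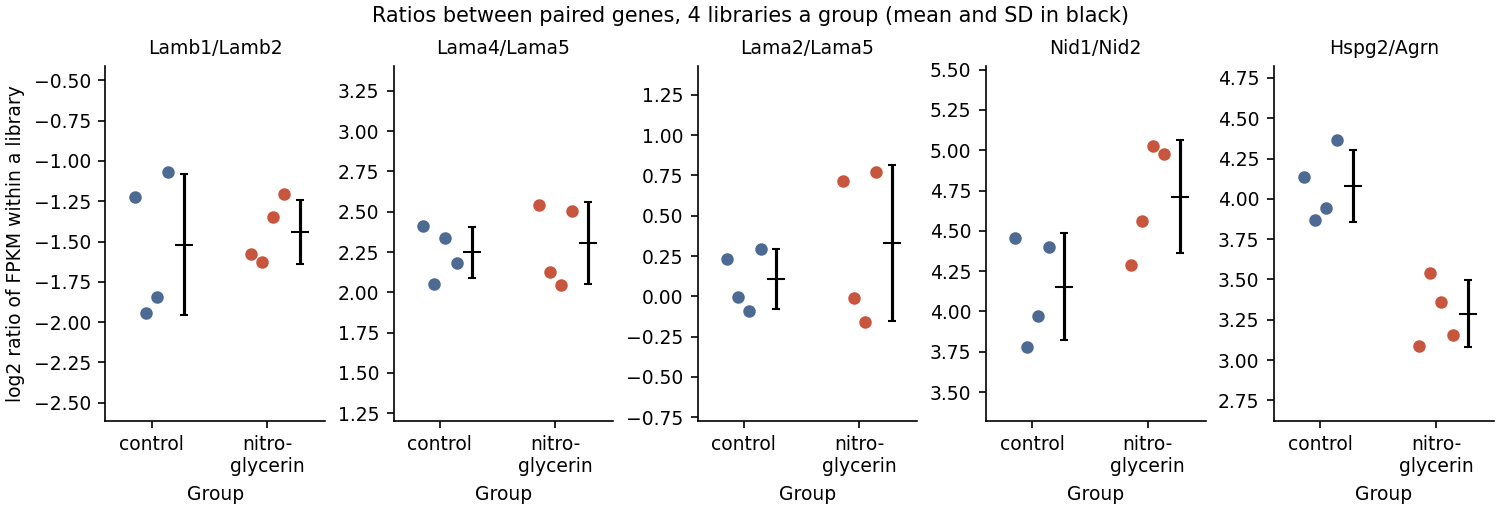
Log2 ratio of paired members within each library; points are libraries, bars are group means with 1 SD. Only for perlecan over agrin do all 4 nitroglycerin libraries, at ratios of 8.50 to 11.7, lie under all 4 controls, at 14.6 to 20.6.

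Read against all genes, every member lay below the median shift. The median log2 difference of the 10 members was -0.29, against 0.30 for all rows tested, with 6 members below 0. The members' median was -0.15 without control replicate 2 and -0.38 to -0.26 without any other library. After rescaling the members' median was -0.60 against 0.01, and all 10 were below 0. Again 0 of 10 passed by limma adjusted p, where 0.0308% of all rows were called higher and 0.1% lower. With an unadjusted p under 0.05 after rescaling, 8 members were lower and 0 higher, against 6.44% lower and 5.5% higher among all rows. The exceptions were Lamb1 and Nid1. Groups did not overlap, lower with nitroglycerin, for 7 members and for 4.45% of all rows, and higher for 0 members and 3.78%. The members share libraries and one matrix, so these counts are not independent observations.

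**Figure D4:**
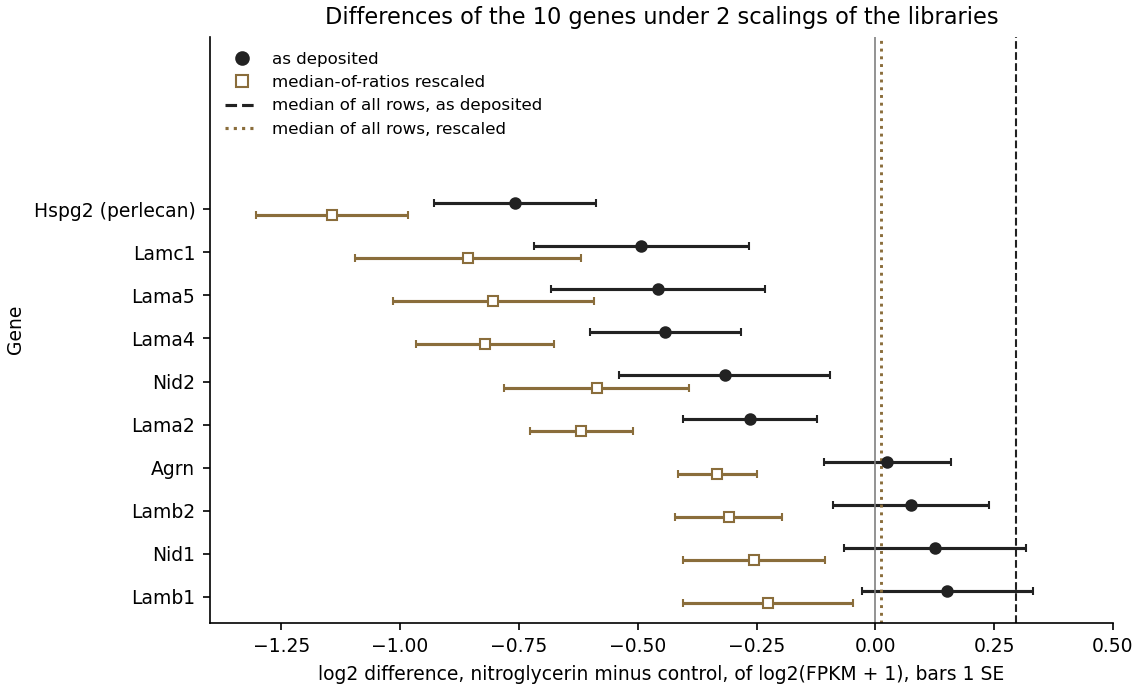
Log2 difference of log2(FPKM + 1), nitroglycerin minus control, of each member with 1 SE, as deposited (filled) and after rescaling (open); the dashed and dotted lines mark the median of all rows under each scaling. All 10 members lie below 0.30 as deposited and below 0 after rescaling.

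The wider pathway was described with 9 lists that hold 112 symbols, of which 83 were tested. As deposited, 1 of these rose and 2 fell by limma adjusted p, and 26 had a higher and 8 a lower value with an unadjusted p under 0.05. After rescaling, 0 rose and 2 fell, with 3 and 18 at an unadjusted p. Among all rows, as given above, 1.29% were called higher and 0.0616% lower as deposited, and 34.1% and 1.02% had an unadjusted p under 0.05, so the number of higher pathway genes was near the background. The rescaled shares were 0.0308% and 0.1%, and 5.5% and 6.44%. No list had a test of its own.

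Among binding partners of the members, the basement membrane collagens had the lowest median, -0.55 as deposited and -0.92 after rescaling. Of 8 tested, 6 were lower at an unadjusted p under both scalings, against 1.02% of all rows as deposited and 6.44% rescaled. Col4a1, the alpha 1 chain of collagen IV, fell from 88.2 ± 12.6 to 47.3 ± 2.50 FPKM (log2 difference -0.88, SE 0.14, limma adjusted p = 0.0442, and 0.0230 after rescaling). Col4a6, another collagen IV chain, stood at 30.9 ± 3.48 and 20.7 ± 2.55 FPKM and fell after rescaling (log2 difference -0.93, limma adjusted p = 0.0361). Col18a1, which carries heparan sulfate and is the source of endostatin, stood at 36.1 ± 7.16 and 20.3 ± 3.38 FPKM, with limma adjusted p of 0.0581 as deposited and 0.0535 rescaled.

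Of 12 tested glycoproteins that associate with basement membranes, Sparc, which binds collagen IV, fell from 1380 ± 199.7 to 636 ± 89.2 FPKM (log2 difference -1.12, SE 0.18, limma adjusted p = 0.0442). After rescaling its adjusted p by limma was 0.0711. Fbln1, a laminin and nidogen binding fibulin, stood at 9.22 ± 3.13 and 16.5 ± 2.84 FPKM (limma adjusted p = 0.0665). Pxdn, the peroxidase that crosslinks collagen IV, stood at 23.1 ± 2.88 and 17.4 ± 2.78 FPKM (limma adjusted p = 0.113).

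Of 10 tested receptors, Itga7, the laminin-binding integrin alpha chain of muscle, rose from 7.57 ± 0.879 to 12.5 ± 1.37 FPKM (log2 difference 0.66, SE 0.13, limma adjusted p = 0.0492). Rescaled, Itga7 had 0.30 (limma adjusted p = 0.473), and the receptors' median was 0.26 as deposited and 0.04 rescaled. Bcam, a laminin alpha 5 receptor, stood at 29.7 ± 2.83 and 39.7 ± 2.36 FPKM, and Itgb4 at 2.55 ± 0.430 and 3.52 ± 0.385 FPKM. Neither passed (limma adjusted p = 0.0735 and 0.0905). None of the 3 calls as deposited (Col4a1, Itga7 and Sparc) held without control replicate 1, 3 or 4 or nitroglycerin replicate 1, 3 or 4. Without control replicate 2 only Sparc passed, and without nitroglycerin replicate 2 Sparc, Col4a1 and Col15a1 passed. After rescaling, 6 collagens passed without nitroglycerin replicate 2, Col4a1 alone without control replicate 3, and 0 pathway genes without any other library (limma, 17 to 22 at an unadjusted p).

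In the other lists 0 genes passed by limma adjusted p under either scaling, and their counts at an unadjusted p are read against 34.1% higher and 1.02% lower among all rows (5.5% and 6.44% rescaled). The dystroglycan complex, which ties laminin to the cytoskeleton, had a median of 0.23 over 10 genes, with 2 higher and 0 lower at an unadjusted p (-0.09, 0 and 0 rescaled). Its genes of lowest p were Sntb1, at 2.01 ± 0.215 and 3.04 ± 0.572 FPKM, Sgcd, at 2.91 ± 0.858 and 4.05 ± 0.509 FPKM, and Utrn, at 9.52 ± 1.31 and 11.7 ± 1.20 FPKM. The enzymes that build the laminin-binding sugar of dystroglycan had a median of 0.35 over 8 genes, 6 of them higher at an unadjusted p where 34.1% of all rows were (0.07 and 0 rescaled, where 5.5% were). The kinase gene Pomk stood at 1.28 ± 0.412 and 2.51 ± 0.745 FPKM, and the mannosyltransferase genes Pomt2 and Pomt1 at 2.06 ± 0.258 and 2.97 ± 0.448, and 2.11 ± 0.393 and 2.95 ± 0.104 FPKM.

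Heparan sulfate synthesis and editing had a median of 0.27 over 19 genes, 7 of them higher and 0 lower at an unadjusted p (-0.05, 1 and 1 rescaled), a share of higher genes near the 34.1% of all rows. Sulf1, an extracellular sulfatase that trims heparan sulfate, stood at 3.42 ± 1.16 and 6.49 ± 1.13 FPKM (limma adjusted p = 0.0598). The chain-elongating enzyme gene Ext1 stood at 5.95 ± 2.15 and 10.3 ± 1.37 FPKM, and the sulfate-donor enzyme gene Papss1 at 5.67 ± 0.395 and 7.49 ± 0.861 FPKM. Of 8 cell-surface heparan sulfate proteoglycans 2 were higher at an unadjusted p (median 0.14, and -0.11 rescaled). The glypican gene Gpc4 stood at 7.80 ± 0.353 and 10.6 ± 0.936 FPKM, the syndecan gene Sdc2 at 11.4 ± 1.96 and 16.1 ± 2.30 FPKM, and the glypican gene Gpc6 at 6.99 ± 0.823 and 5.54 ± 1.13 FPKM. Glypicans are held in the membrane by a lipid anchor and syndecans by a membrane-spanning segment.

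Proteases that can cut the members had a median of 0.23 over 6 genes, 3 of them higher at an unadjusted p, against 34.1% of all rows (-0.06, with 1 higher and 2 lower, rescaled). The gelatinase gene Mmp2 stood at 137 ± 35.6 and 266 ± 51.2 FPKM (limma adjusted p = 0.0589). The cathepsin genes Ctsl and Ctss stood at 21.5 ± 2.46 and 28.6 ± 2.82, and at 6.56 ± 1.504 and 9.49 ± 2.14 FPKM. Of the other laminin chains and netrins 3 of 8 reached the filter: the netrin genes Ntn1, at 15.3 ± 4.29 and 21.8 ± 1.80 FPKM, and Ntn4, at 1.77 ± 0.423 and 2.38 ± 0.357 FPKM, and the gamma 3 chain Lamc3, at 3.99 ± 0.955 and 4.19 ± 0.895 FPKM. Netrins are secreted relatives of the laminin short arms.

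**Figure D5:**
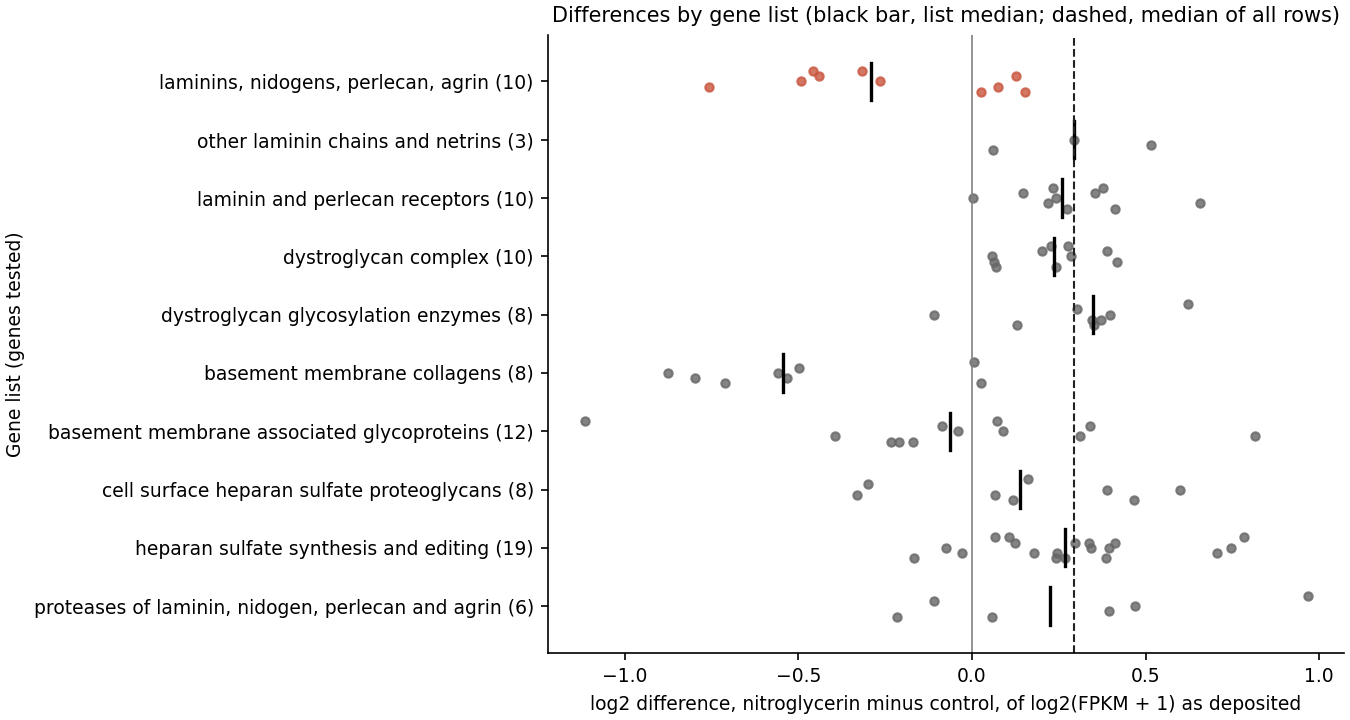
Log2 difference of log2(FPKM + 1), nitroglycerin minus control and as deposited, of every tested gene of the 10 members and of the 9 pathway lists; points are genes, black bars list medians and the dashed line the median of all rows. The collagens have a median of -0.55 and the members one of -0.29, left of the dashed line at 0.30.

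Aorta holds several cell types that make these proteins, and in bulk RNA fewer cells of a type cannot be told apart from less RNA per cell. Smooth muscle markers (9 of 10 in the table) summed to 2397 to 3103 FPKM in controls and 1462, 2899, 2249 and 1798 FPKM in nitroglycerin libraries 1 to 4. That sum is mostly Acta2, smooth muscle actin, which read 1061, 2359, 1758 and 1232 FPKM in those libraries, low in replicates 1 and 4 as Lama4, Lama5, Lamc1 and perlecan were. Cnn1 read 38.9, 88.5, 66.03 and 31.97 FPKM and Des 10.7, 21.8, 16.1 and 11.5 FPKM in the same libraries. Both were thus also low in replicates 1 and 4. The markers did not all move as one. Replicate 4 had the highest nitroglycerin values of Myh11, Myl9 and Itga8, at 159, 134 and 170.2 FPKM, and Lmod1 stood at 10.4 ± 1.12 FPKM in controls and 19.1 ± 4.75 FPKM with nitroglycerin. Of 9 tested 0 passed by limma adjusted p. At an unadjusted p under 0.05, 1 was higher and 3 lower, against 34.1% and 1.02% of all rows. Rescaled, 1 was higher and 5 lower, against 5.5% and 6.44%. The list's median log2 difference was -0.31 (-0.67 rescaled), beside -0.29 (-0.60 rescaled) for the members.

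Fibroblast markers (7 of 8) summed to 1736 to 2513 FPKM in controls and 1438 to 1565 FPKM with nitroglycerin, a sum that is mostly the collagen gene Col1a1 at 1779 ± 302 and 1151 ± 33.5 FPKM. Of the other markers, Dcn, Pi16, Dpt and Mfap5 had higher means with nitroglycerin. The proteoglycan gene Dcn stood at 75.5 ± 26.3 and 128 ± 13.2 FPKM and Pi16 at 18.5 ± 5.55 and 30.2 ± 10.2 FPKM. Lum and Fbln2 had lower means, with log2 differences of -0.14 and -0.042. With Col1a1, 3 of the 7 tested markers had a log2 difference below 0, and 4 of 7 after rescaling. The list's mean log2 value overlapped, at 5.58 to 6.32 in controls and 5.85 to 6.20 with nitroglycerin, and its median log2 difference was 0.23 (-0.15 rescaled). Of 7 tested 0 passed by limma adjusted p. At an unadjusted p under 0.05, 2 were higher and 1 lower, against 34.1% and 1.02% of all rows. Rescaled, 0 were higher and 2 lower, against 5.5% and 6.44%. Endothelial markers (11 of 12) summed to more with nitroglycerin as deposited, at 44.3 to 67.4 and 73.7 to 86.5 FPKM. Under that scaling 24.2% of all rows were higher without overlap, and the sum was not rescaled. Its most abundant gene, Vwf, stood at 23.6 ± 9.12 and 23.6 ± 3.61 FPKM. The list's median log2 difference was 0.54 against 0.30 for all rows, and 0.21 against 0.01 rescaled. Esam and Eng, endothelial surface genes, rose as deposited (limma adjusted p = 0.0413 and 0.0492) and did not pass after rescaling (0.211 and 0.459).

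Skeletal muscle markers (6 of 8) summed to 22.3 to 32.4 FPKM in controls and 14.8 to 21.9 FPKM with nitroglycerin. Among them Ckm, the muscle creatine kinase gene, fell under both scalings, at 9.78 ± 0.825 and 5.06 ± 1.35 FPKM (limma adjusted p = 0.0492, and 0.0351 rescaled). Of the 4 tested, 3 had a log2 difference below 0, and 4 rescaled. Tnnt3 had a higher mean with nitroglycerin, at 4.07 ± 1.44 and 4.68 ± 1.15 FPKM. Casq1 stood at 1.16 ± 0.290 and 1.05 ± 0.258 FPKM, and Mylpf and Tnnc2 were under 1 FPKM throughout. Only Ckm, 1 of 4, had an unadjusted p under 0.05 by limma, and after rescaling 2 did, both lower. Among all rows 1.02% were lower by that measure, and 6.44% rescaled. Adipocyte markers (9 of 10) summed to 11.3 to 30.2 FPKM in controls, 134.9 FPKM in nitroglycerin replicate 1 and 17.3 to 24.4 FPKM in the other three. Macrophage markers (7 of 8) summed to 43.0 to 106.7 and 63.2 to 107.5 FPKM, a sum led by the lysozyme gene Lyz2. Cd163, a scavenger receptor gene of macrophages, rose as deposited from 1.91 ± 0.194 to 4.92 ± 1.48 FPKM (limma adjusted p = 0.0492) and did not pass rescaled (0.160), though its groups did not overlap under either scaling. Adgre1 stood at 1.42 ± 0.301 and 2.87 ± 0.428 FPKM without overlap as deposited, and its groups overlapped after rescaling. Among all rows 24.2% were higher without overlap as deposited and 3.78% rescaled. Lyz2 had a lower mean, at 52.0 ± 26.2 and 41.3 ± 19.8 FPKM. Of 7 macrophage markers tested, 3 were higher and 0 lower at an unadjusted p under 0.05, against 34.1% and 1.02% of all rows. Rescaled, 2 were higher and 0 lower, against 5.5% and 6.44%. The marker genes outside the naming rule (Cnn1, Des, Myh11, Myl9, Itga8, Lmod1, Dcn, Pi16, Dpt, Mfap5, Lum, Fbln2, Tnnt3, Mylpf, Tnnc2, Casq1 and Adgre1) were chosen after their values were seen. Schwann cell markers summed to 2.53 to 4.83 FPKM over all 8 libraries, with 6 to 8 of 8 markers under 1 FPKM in each, and all 5 mesothelial markers were under 1 FPKM throughout. The part of these cell types in the members' values was not tested. With an adipocyte score, the mean log2 value of those markers, as a covariate the perlecan difference was -0.65 on the log2 scale (SE 0.18, limma adjusted p = 0.115), and Lama4 no longer had an unadjusted p under 0.05.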

How the data were processed

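The 8 libraries were made from ribosomal-RNA-depleted total RNA, per the labels' protocols. Tools listed in the submitters' processing notes are Bowtie 0.12.2, HISAT2 2.0 and StringTie 1.3.0, and the builds mm8 and Rnor_6.0, with no role or order given. The gene table deposited by the authors gives FPKM per row and library, per the file headers, and 0 of its library columns could not be matched to a sample. In a deposited table of lncRNA transcripts, coverage and FPKM stand side by side, and their ratio gave the aligned sequence. Of its 4686 transcripts 0 carry a member symbol. Counts were not analysed here.

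Groups were compared with limma 3.58.1 (R 4.3.3, mean-variance trend) on log2(FPKM + 1) over the 12977 rows that reached 1 FPKM in 4 or more libraries, with Benjamini-Hochberg adjustment over all rows and a threshold of 0.05. Ratios were compared by exact permutation over 70 splits, and SciPy 1.17.1 gave the Benjamini-Hochberg adjustment over the 5 pairs. The table does not carry the symbol Hspg2, so perlecan was joined by its synonym, and results are also given without it. Members and lists were chosen with earlier results of these data known. Named were all members, pathway genes that passed under either scaling, and those of lowest p up to 3 per list. Marker genes that passed or had the highest mean could also be named. No pair of libraries held identical values. The steps were tested on simulated data. Alternatives were the pseudocount, filters, scalings, robust moderation, an adipocyte covariate, a replicate block, a single row for each symbol and leaving out single libraries. Those on the rescaled values, on the pathway lists and without perlecan were chosen after seeing the data. Marker genes absent from the table were not analysed here.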

Additional observations from a re-analysis of the deposited data

Results flagged for a closer look

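Of 124 groups of 4 libraries examined, 6 (4.84%) held 1 library far from the other three, where chance gives about 1 in 20. Lamb1 read 43.2 FPKM in control replicate 4 against 26.6 to 29.4 in the other controls. Nid1 read 41.9 FPKM in nitroglycerin replicate 2 against 59.7 to 63.3 in the other nitroglycerin libraries. Nid2 read 3.06 FPKM in nitroglycerin replicate 1 against 1.78 to 1.99. The laminin gamma 3 gene Lamc3 read 5.52 FPKM in nitroglycerin replicate 2 against 3.62 to 3.85. The adipocyte fatty acid binding protein gene Fabp4 read 39.6 FPKM in nitroglycerin replicate 1 against 6.55 to 10.6, and the summed adipocyte markers of that library came to 134.9 FPKM against 17.3 to 24.4.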

How the results depend on the processing

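Lama2, Lama4, Lama5, Lamc1, Nid2 and perlecan had log2 differences below 0 under every alternative that tested them (Nid2 was not tested with the filter of 5 FPKM). The 4 members near 0 changed sign with scaling: under rescaling and quantile normalization Lamb1 came to -0.23 and -0.12, Lamb2 to -0.31 and -0.12, Nid1 to -0.26 and -0.089 and Agrn to -0.33 and -0.26. With 1 library left out Lamb2 ranged from -0.047 to 0.16, Agrn from -0.068 to 0.10, the Lamb1 to Lamb2 ratio from -0.061 to 0.23 and the Lama4 to Lama5 ratio from -0.020 to 0.14. The members' median of -0.29 came to -0.60 after rescaling and -0.58 after quantile normalization, and ranged from -0.38 to -0.15 with a library left out. Against 0 members called by limma, the filter of 5 FPKM and robust moderation each called 1, and after rescaling leaving out a library gave 0 to 2. Against 2 at an unadjusted p under 0.05 there were 8 after rescaling, 7 after quantile normalization, 1 with the adipocyte covariate, 1 without perlecan and 1 to 4 with a library left out. Against 3 pathway genes called, the filter of 5 FPKM gave 9 and leaving out a library 0 to 3. A pseudocount of 0.1, no filter, quantile normalization, the covariate and the replicate block each gave 0. After rescaling, where 2 were called, the covariate and the block gave 0 and leaving out a library 0 to 6. Where limma called 0, 21 to 35 pathway genes as deposited and 15 to 23 rescaled had an unadjusted p under 0.05. The causes were not tested.

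Whether the replicate numbers pair the samples was not settled. Same-numbered deviations correlated at 0.13, -0.01, -0.01 and 0.12, but differently numbered pairs were not measured for comparison. With the number as a block 0 of all 12977 rows were called by limma (3869 higher and 168 lower at an unadjusted p), perlecan had an adjusted p of 0.123, and the perlecan to agrin ratio kept -0.79 with an exact sign-flip permutation p of 0.125, the smallest that 4 pairs allow. The limits are 4 libraries per group, relative values with no counts, and a shift of the median gene that moves with scaling.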

Other observations

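Rows near the members were read as values only. The second Nid2 row, an assembled locus with no annotated transcript, read 1.52, 0.731, 0 and 1.34 FPKM in controls and 1.43, 0, 2.06 and 1.05 FPKM with nitroglycerin, so both groups held a library listed at 0. The gene LOC102554659 stood at 1.66 ± 0.500 and 1.94 ± 0.317 FPKM beside Lamc3 at 3.99 ± 0.955 and 4.19 ± 0.895 FPKM (mean ± SD, n = 4 per group).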
